A study of Citrus sinensis with 4 samples.

Results

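The genes described here were low in 1 of 4 sweet orange fruit libraries, that of Dahongtiancheng at 70 days after full bloom, and had similar levels in the other 3. They number 9 of the 29036 gene models listed, or 9 of the 28435 with identifiers of the form Cs or orange1.1t from which they were drawn, with Cs1g16150 left out. They are Cs6g01200, Cs9g06070, Cs3g02600, Cs3g15720, Cs9g14580, Cs4g19560, Cs6g10120, Cs7g10530 and orange1.1t02784. They were chosen by their counts. The 70-day Dahongtiancheng level had to be the lowest of the 4, and the third highest level had to be at least 4 times as high and at least 3. The second highest level had to be under 1.5 times the third, and the highest under 4 times the second. For this rule a level is the CPM, a gene's fragments divided by all fragments listed in the library and multiplied by 1000000, plus 0.5. The low value in this library and the likeness of the other 3 are therefore what the genes were chosen for, and are given as a description.

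Poly(A) RNA was sequenced from fruit endocarps taken 50 or 70 days after full bloom. The trees belonged to 2 Citrus sinensis L. Osbeck cultivars, Dahongtiancheng and Bingtangcheng. Each combination of cultivar and stage is 1 library, so no value has a replicate, no p-value stands behind any difference, and a cultivar or stage cannot be told apart from a single library. The labels do not say how many fruits or trees went into a library. The libraries held between 14040916 and 16445383 fragments, so that 1 fragment was worth between 0.0608 and 0.0712 CPM. Intervals given here cover counting error only, since no value has a replicate. They may be too narrow even for that, because these fragments carry no molecular identifiers and are not independent molecules.

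The endocarp is the inner layer of the citrus fruit wall, and the juice sacs that form the edible pulp grow from it. Young citrus fruit first grows mainly by cell division and later mainly by enlargement of the juice sac cells, whose vacuoles store organic acids and sugars. Gene expression in this tissue is therefore often followed over the weeks after bloom. The files give an identifier, a position, a strand and a length for each gene, but no name or description, and no source used here names the build of the positions. Of the 29036 identifiers, 0 matched the 29331 genes of the RefSeq table for the Valencia assembly DVS_A1.0, so no gene is given a function here, and no marker of endocarp or of any other tissue could be looked up. In bulk tissue, fewer cells of a type and less RNA per cell cannot be told apart.

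In 4 of the genes, a single fragment was listed in the 70-day Dahongtiancheng library. Cs6g01200 (chromosome 6, 377704 to 380901, minus strand) had 155 fragments in 50-day and 1 in 70-day Dahongtiancheng, against 136 and 121 in Bingtangcheng. Cs9g06070 (chromosome 9, 3672520 to 3674430, plus strand) had 108 and 1 in Dahongtiancheng, beside 182 and 123 in Bingtangcheng. These 2 genes had the widest gaps of the 9, with a clear signal in both 50-day libraries and in the 70-day Bingtangcheng library. Cs3g02600 (chromosome 3, 2388275 to 2391337, minus strand) had 75 and 1 in Dahongtiancheng, beside 78 and 66 in Bingtangcheng. Cs3g15720 (chromosome 3, 19721696 to 19723540, plus strand) had 102 and 1 in Dahongtiancheng, beside 70 and 52 in Bingtangcheng. In all 4 genes the value of 1 lies under 3 fragments, the limit that a count of 0 allows, which is 0.185 CPM in this library.

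The ratios of these 4 genes to the 70-day Dahongtiancheng level were large but poorly bounded from above. The 70-day Bingtangcheng level of Cs6g01200 was 7.36 CPM against 0.0618, a ratio of 119 with an exact conditional 95% counting interval from 21.0 to 4744. Its 50-day Dahongtiancheng level was 9.54 CPM, a ratio of 154 (27.3 to 6138). For Cs9g06070 the ratios were 121 (21.3 to 4822) for 70-day Bingtangcheng and 108 (18.9 to 4289) for 50-day Dahongtiancheng. The intervals take the listed counts as whole fragments and leave out any error in assigning fragments to genes. For counting error their lower ends are the informative part, because the denominator is 1 fragment. They were lower for Cs3g02600, whose ratios were 65.0 (11.3 to 2605) and 74.7 (13.0 to 2990). For Cs3g15720 they were 51.2 (8.79 to 2061) and 102 (17.8 to 4053). In the authors' scaled counts the listed fragment is only a part of a fragment for these 4 genes, as described further on. The ratio of the lowest other library to 70-day Dahongtiancheng was accordingly larger there, at 2779 for Cs6g01200, 420 for Cs9g06070, 220 for Cs3g02600 and 233 for Cs3g15720.

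The other 5 genes kept a measurable level in the 70-day Dahongtiancheng library. Cs9g14580 (chromosome 9, 13994036 to 13997196, minus strand) had 86 fragments in 50-day and 8 in 70-day Dahongtiancheng, against 129 and 95 in Bingtangcheng. Its 70-day Bingtangcheng level was 11.7 times the Dahongtiancheng level (95% counting interval 5.70 to 27.9). Cs6g10120 (chromosome 6, 11786218 to 11787620, minus strand) had 68 and 7 in Dahongtiancheng, beside 122 and 64 in Bingtangcheng, a 70-day ratio of 9.0 (4.13 to 23.3). Both genes stayed above 3 fragments in every library.

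Cs4g19560 (chromosome 4, 19019411 to 19022093, minus strand) had 97 fragments in 50-day and 13 in 70-day Dahongtiancheng, against 172 and 104 in Bingtangcheng, a 70-day ratio of Bingtangcheng to Dahongtiancheng of 7.88 (4.41 to 15.3). Cs7g10530 (chromosome 7, 6800608 to 6805437, plus strand) had 129 and 15 in Dahongtiancheng, beside 186 and 91 in Bingtangcheng, a ratio of 5.97 (3.44 to 11.1). The best measured gene was orange1.1t02784 (unplaced sequence, 42734919 to 42737430, minus strand), with 486 fragments in 50-day and 80 in 70-day Dahongtiancheng, against 549 and 370 in Bingtangcheng. Its 70-day ratio was 4.55 (3.57 to 5.87), the lowest of the 9 genes and the most narrowly bounded. Over the 9 genes the ratio to 70-day Dahongtiancheng ran from 6.05 to 154 for 50-day Dahongtiancheng, with a median of 10.7, and from 7.91 to 210 for 50-day Bingtangcheng, with a median of 20.1.

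**Figure D1:**
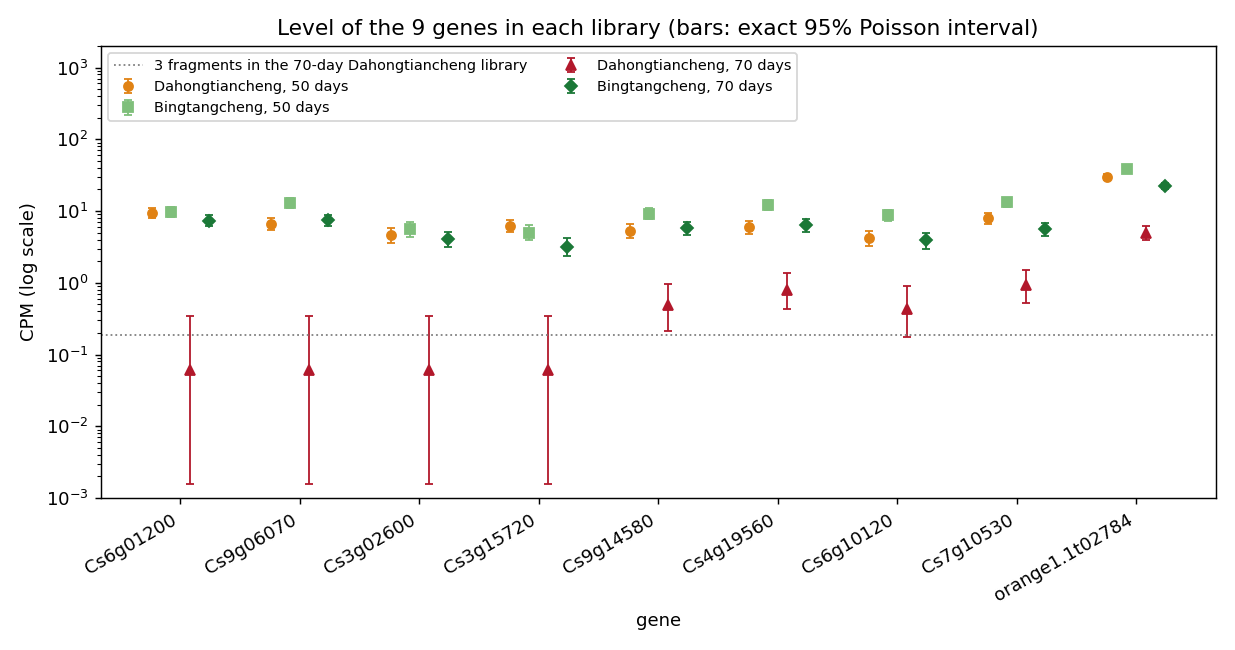
CPM on a log scale for the 9 genes in each of the 4 libraries, with exact 95% Poisson intervals of the counts; the dotted line marks 3 fragments in the 70-day Dahongtiancheng library (0.185 CPM). The 70-day Dahongtiancheng point is the lowest for each gene, and for Cs6g01200, Cs9g06070, Cs3g02600 and Cs3g15720 it stands for 1 fragment.

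**Figure D2:**
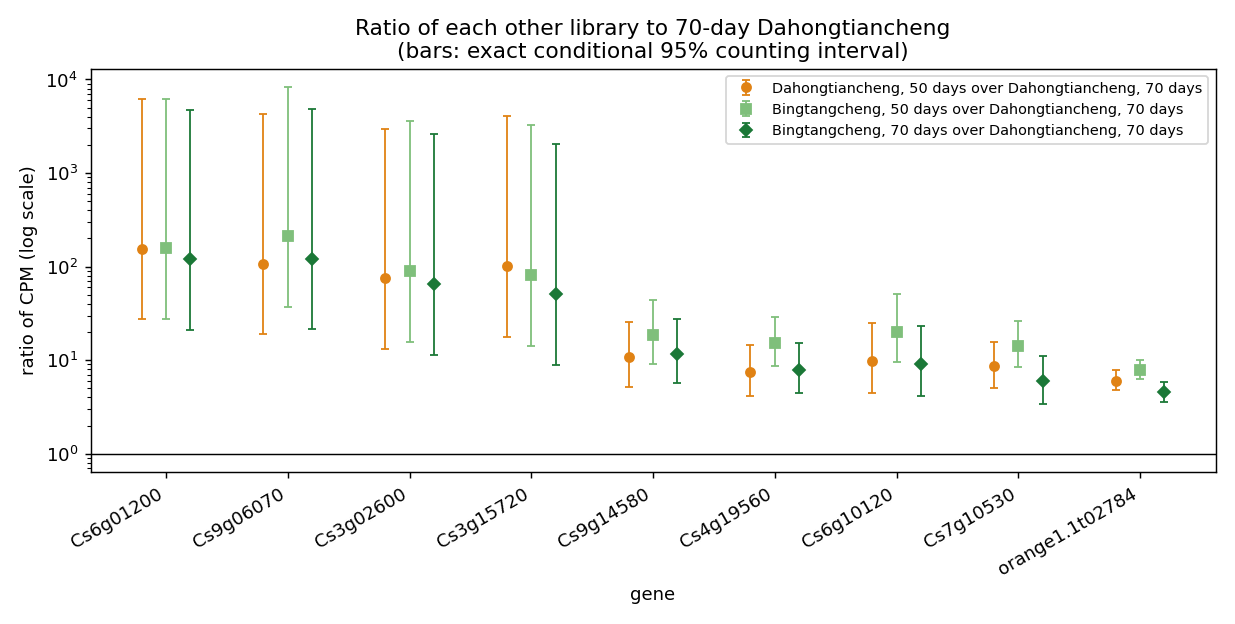
Ratio of the CPM of each other library to that of 70-day Dahongtiancheng, on a log scale, with exact conditional 95% counting intervals. The lowest interval end over the 27 ratios is 3.44, for Cs7g10530 in 70-day Bingtangcheng, and the intervals of the 4 genes with 1 fragment reach at least 2061.

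Together the 9 genes held few fragments. Their share was 0.00804% of the 50-day Dahongtiancheng library (exact 95% binomial interval 0.00761 to 0.00848) and 0.0116% of the 50-day Bingtangcheng library (0.0110 to 0.0121). At 70 days it was 0.00660% in Bingtangcheng (0.00622 to 0.00701) and 0.000784% in Dahongtiancheng (0.000654 to 0.000933). In the last library 80 of the 127 fragments came from orange1.1t02784. The remaining 8 genes had 47 fragments there, beside 820, 1075 and 716 in 50-day Dahongtiancheng, 50-day Bingtangcheng and 70-day Bingtangcheng.

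Per length, most of the 9 genes were weakly expressed also where they were high. Per kilobase of listed length, orange1.1t02784 had between 14.4 and 25.0 CPM in the 3 libraries other than 70-day Dahongtiancheng. Cs6g10120 had between 3.94 and 8.80, and Cs7g10530 between 3.25 and 7.77. The lowest was Cs3g02600, with between 1.31 and 1.81. The median over these 3 libraries, in CPM per kilobase, had a median of 3.51 over the 9 genes and of 19.3 over the 13336 genes for which the third highest level was at least 3 in the units of the rule, the genes over the floor. Genes taken by the same rule with another library as the low one were also under 19.3. In the same 3 libraries their median was 7.78 for 70-day Bingtangcheng (37 genes) and 16.2 for 50-day Bingtangcheng (13 genes). It was 4.65 for 50-day Dahongtiancheng (1 gene). For those sets the low library is among the 3.

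A size rule was applied to each pair of libraries, with TMM-scaled levels. It asked for at least 10 fragments and 1 CPM in 1 of the pair, a 2-fold ratio and a 99% exact counting interval that excluded 1. All 9 genes were lower by it in 70-day Dahongtiancheng than in 50-day Dahongtiancheng, against 12.8% of 16211 genes in all. All 9 were also lower than in 70-day Bingtangcheng (5.84% of 15895 genes) and than in 50-day Bingtangcheng (14.7% of 16387 genes). The genes were chosen on these pairs, so nothing is read from the counts.

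The order of the other 3 libraries differed among the 9 genes. The 50-day Bingtangcheng library was the highest in 8 genes, as in 40.3% of the 13336 genes over the floor, and 50-day Dahongtiancheng was the highest in Cs3g15720. The third highest was 70-day Bingtangcheng in 6 genes and 50-day Dahongtiancheng in Cs9g06070, Cs9g14580 and Cs4g19560. The 70-day Bingtangcheng level was below the 50-day Bingtangcheng level in 9 of 9 genes, as it was in 69.5% of the genes over the floor. The ratio of 50-day to 70-day Bingtangcheng ran from 1.32 (95% counting interval 1.02 to 1.70) in Cs6g01200 to 2.39 (1.85 to 3.11) in Cs7g10530, with a median of 1.73. TMM scaling moved this log2 ratio by -0.29 for every gene, and the ratio then ran from 1.08 to 1.96, still above 1 in 9 genes. By the size rule 0 of the 9 genes were lower in 70-day than in 50-day Bingtangcheng, against 13.4% of 16199 genes. The condition on the second highest level keeps such genes out in part.

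The cultivars differed less at 50 days than at 70 days, which largely follows from the rule. The ratio of Dahongtiancheng to Bingtangcheng at 50 days was below 1 in 8 of the 9 genes, as in 58.6% of the genes over the floor, and ran from 0.482 (0.353 to 0.653) in Cs6g10120 to 1.26 (0.920 to 1.73) in Cs3g15720. With TMM scaling it was below 1 in 7, because Cs6g01200, at 0.985 (0.777 to 1.25) before, then passed 1. Cs6g10120 was the only gene of the 9 that met the size rule there, being higher in Bingtangcheng, against 3.74% of 16139 genes. Its TMM ratio of 0.499875 only just passed the 2-fold limit, and Cs4g19560 failed at 0.506. With library sums the ratio of Cs4g19560 was 0.487 (0.376 to 0.628), past that limit. Between 50-day Dahongtiancheng and 70-day Bingtangcheng the rule itself keeps most ratios small. The ratio of 50-day Dahongtiancheng to 70-day Bingtangcheng had an interval that included 1 in Cs9g06070 (0.888, 0.680 to 1.16), Cs3g02600 (1.15, 0.815 to 1.63), Cs9g14580 (0.916, 0.676 to 1.24), Cs4g19560 (0.944, 0.708 to 1.26) and Cs6g10120 (1.08, 0.753 to 1.54). It excluded 1 in the other 4, where 50-day Dahongtiancheng was higher: 1.98 (1.41 to 2.83) in Cs3g15720, 1.43 (1.09 to 1.90) in Cs7g10530, 1.33 (1.16 to 1.53) in orange1.1t02784 and 1.30 (1.02 to 1.66) in Cs6g01200. With TMM scaling the ratio was above 1 in 4 of the 9 genes, against 6 with library sums.

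The gap was also read against all genes with a like pattern. With similar levels in the other 3 libraries, as the rule defines them, 4086 genes were lowest in 70-day Dahongtiancheng. Over these genes the ratio of the third highest level to that library, both with 0.5 added, had a median of 1.17 and a 99th percentile of 2.62. It reached 2 in 141 genes, 3 in 30 and 4 in the 9, where it was 14.0 in Cs6g01200, 12.7 in Cs9g06070, 8.03 in Cs3g02600, 6.52 in Cs3g15720, 5.83 in Cs9g14580, 4.96 in Cs4g19560, 4.71 in Cs6g10120, and 4.23 in both Cs7g10530 and orange1.1t02784. Just outside lay Cs4g04210, with 80 fragments in 50-day and 10 in 70-day Dahongtiancheng, 81 and 65 in Bingtangcheng, and a ratio of 3.98. Next came Cs1g26320, with 98 and 17 in Dahongtiancheng, 75 and 95 in Bingtangcheng, and a ratio of 3.77. The 9 genes are thus the upper end of a continuous range, and only the 3 highest ratios reached 8.

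Most genes that were at least 4 times lower in 70-day Dahongtiancheng did not have similar levels in the other 3 libraries. The library was the lowest of the 4 in 5193 genes over the floor, 38.9% of 13336, and by at least 4 times in 31. Of the 31, 19 had a second highest level at or above 1.5 times the third, and in 18 of these the third highest library was 70-day Bingtangcheng. The last condition removed Cs5g24520, Cs5g32420 and Cs9g14710, named after their values were seen. Cs5g24520 had 106 fragments in 50-day and 1 in 70-day Dahongtiancheng, against 481 and 97 in Bingtangcheng, so that its highest level was 4.95 times the second highest. Cs5g32420 had 47 and 4 in Dahongtiancheng, beside 187 and 43 in Bingtangcheng. Cs9g14710 had 65 and 7 in Dahongtiancheng, beside 310 and 60 in Bingtangcheng. These 3 genes were lowest in 70-day Dahongtiancheng like the 9, and each had a 50-day Bingtangcheng level over 4 times its second highest.

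Under another scaling the rule took 5 more genes, among them far more abundant ones. With TMM factors, with median-of-ratios factors and with the deposited scaled counts, the 9 genes were kept and the same 5 were added. They are Cs1g16180, Cs4g04210, Cs5g32420, Cs9g14190 and orange1.1t00203. Cs1g16180 (chromosome 1, 19287487 to 19290329, plus strand) had 10758 fragments in 50-day and 1094 in 70-day Dahongtiancheng, against 12555 and 7093 in Bingtangcheng. Cs9g14190 (chromosome 9, 13609381 to 13610397, plus strand) had 9227 and 1109 in Dahongtiancheng, beside 7823 and 5733 in Bingtangcheng. With library sums the third highest levels of these 2 genes were 6.34 and 5.06 times the 70-day Dahongtiancheng level, and they failed by a second highest level that was 1.53 and 1.60 times the third highest. With TMM factors those last ratios became 1.31 and 1.31. In orange1.1t00203, with 93 and 2 fragments in Dahongtiancheng and 287 and 58 in Bingtangcheng, the ratio of the second highest to the third highest level went from 1.55 to 1.34.

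The same rule with another library in the place of 70-day Dahongtiancheng gave 37 genes for 70-day Bingtangcheng, 13 for 50-day Bingtangcheng and 1 for 50-day Dahongtiancheng. As shares of the 13336 genes over the floor these are 0.277%, 0.0975% and 0.0075%, beside 0.0675% for the 9 genes. The order of 9 and 13 depended on the scaling: with TMM factors, median-of-ratios factors or the deposited scaled counts 70-day Dahongtiancheng had 14 genes, 50-day Bingtangcheng 11 and 70-day Bingtangcheng 34. With the deposited FPKM, rescaled to a common library sum, the numbers were 10, 32 and 18. The FPKM of 50-day Bingtangcheng summed to 4.13e+06, against 2.04e+06 to 2.42e+06 in the other libraries. The rescaling therefore lowered the levels of that library most, and the FPKM numbers carry this shift. With library sums of fragments the largest ratio was 14.0 in 70-day Dahongtiancheng, 135 in 70-day Bingtangcheng, 18.3 in 50-day Bingtangcheng and 6.70 in 50-day Dahongtiancheng. At a ratio of at least 8 the libraries had 3, 20, 5 and 0 genes in that order. At a ratio of at least 2 the order was different, with 141 genes in 70-day Dahongtiancheng and 132 in 70-day Bingtangcheng. Of the Citrus_newGene models, which the rule leaves out, 0 met its numeric conditions for 70-day Dahongtiancheng.

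**Figure D3:**
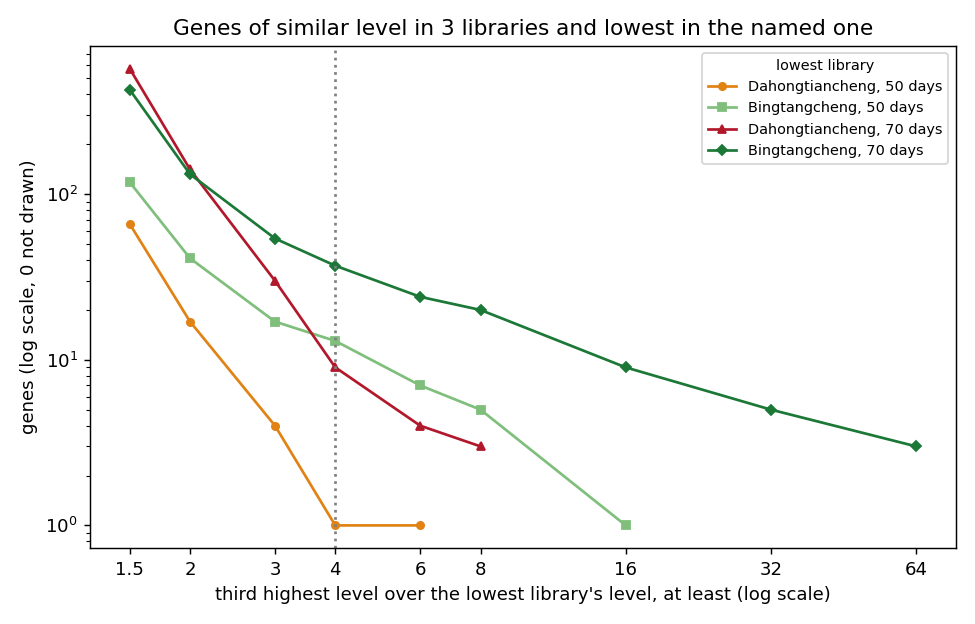
Number of genes (log scale) with similar levels in 3 libraries, where the third highest level was at least a given number of times that of the lowest library (log scale), for each library as the lowest; the dotted line marks the threshold of 4. At 2 the curves of 70-day Dahongtiancheng and 70-day Bingtangcheng stand at 141 and 132 genes, and at 4 they stand at 9 and 37.

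The files held a second reading of each count, which set the 4 genes with 1 fragment apart from the other 5. The deposited scaled count divided by the factor of its library (the median of scaled over listed counts, 1.06 in 70-day Dahongtiancheng) gives the number of fragments behind it. The listed count lay between this number and 1 above it in over 99.8% of the genes with fragments in each library (tolerance 0.02). For Cs6g01200 the implied numbers were 155 and 136 at 50 days to the nearest whole number, and 0.0430 in Dahongtiancheng and 120 in Bingtangcheng at 70 days. In 70-day Dahongtiancheng they were 0.217 for Cs9g06070, 0.287 for Cs3g02600 and 0.219 for Cs3g15720. The single fragment listed for these 4 genes thus stood for a part of a fragment in the authors' scaled values.

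In these 4 genes the implied number was not whole, within 0.02 of a fragment plus 0.01% of it, in at least 1 library, as it was in 12.4% of the 13336 genes over the floor. It was not whole in all 4 libraries for Cs6g01200, Cs9g06070 and Cs3g15720, and in 3 for Cs3g02600. In the other 5 genes it was whole in each library. There it equalled the listed count, apart from a listed count higher by 1 for Cs9g14580 in 50-day Bingtangcheng and for orange1.1t02784 in 70-day Dahongtiancheng. How parts of fragments were assigned is not stated in the sources at hand, and reads of near-identical gene copies may have been divided, so the levels of these 4 genes are uncertain in that respect. With the implied numbers in place of the listed counts, an alternative added after the data were seen, the rule took the same 9 genes. The implied numbers of these genes lie within 1 fragment of the listed counts and carry the same division of fragments. This alternative therefore cannot address that uncertainty.

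**Figure D4:**
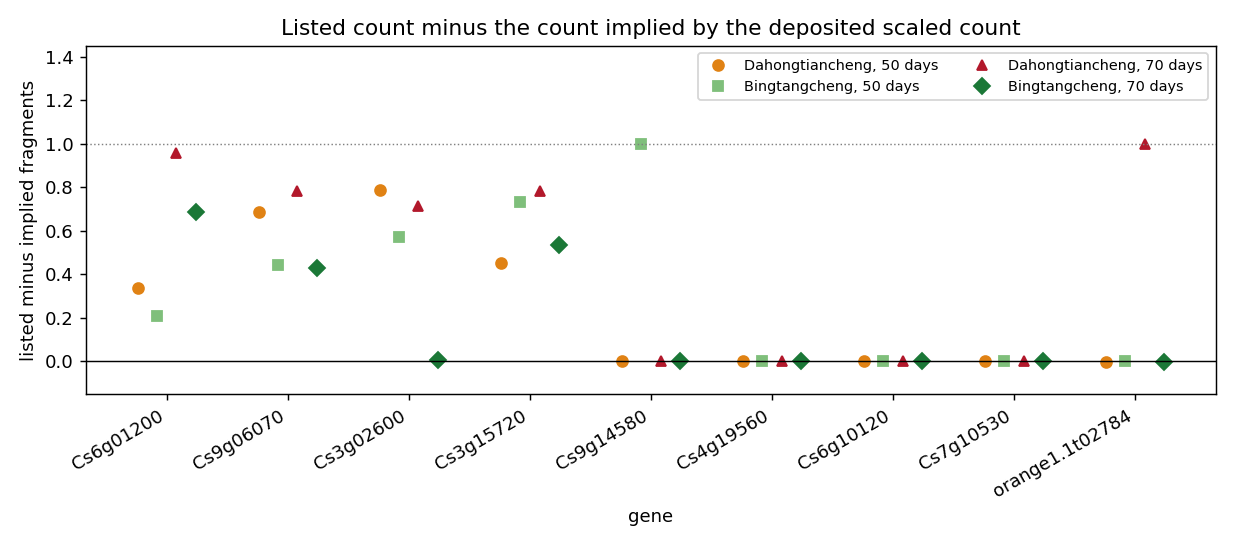
Listed fragment count minus the count implied by the deposited scaled count, for the 9 genes in each library. For Cs6g01200, Cs9g06070, Cs3g02600 and Cs3g15720 the points lie between 0 and 1, at 0.957, 0.783, 0.713 and 0.781 in 70-day Dahongtiancheng, while for the other 5 genes each point lies at 0 or at 1.

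The same 4 genes were also those whose listed length equalled the distance from their start to their end, as in a gene model without introns. The lengths were 3198 bases for Cs6g01200, 1911 for Cs9g06070, 3063 for Cs3g02600 and 1845 for Cs3g15720, all divisible by 3, as in 1420 of the 1432 genes over the floor with length equal to span. The lengths of the other 5 ran from 987 bases in Cs6g10120 to 2264 in Cs9g14580, shorter than their spans. Among all genes over the floor 10.7% had a length equal to the span. Of those genes 41.8% had an implied number that was not whole in at least 1 library, against 8.85% of the other 11904. The pair of features thus often occurred together outside the 9 genes too. The median length was 1845 bases for the 9 genes and 1722 for the genes over the floor. Length equalled span in 7 of the 37 genes low in 70-day Bingtangcheng and in 6 of the 13 low in 50-day Bingtangcheng. An implied number that was not whole in at least 1 library occurred in 7 of the 37 and 7 of the 13.

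The 9 genes were scattered over the genome. They lay on chromosomes 3, 4, 6, 7 and 9 and on unplaced sequence, with 6 on the minus strand, and 0 were next to each other. Cs3g02600 and Cs3g15720 had 1343 listed genes between them, Cs6g01200 and Cs6g10120 had 901, and Cs9g06070 and Cs9g14580 had 854. No listed gene shared bases with any of the 9.

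The genes beside them were mostly not low in 70-day Dahongtiancheng to the same degree. Of the 18 directly flanking genes, 11 had a median level of at least 3 in the other 3 libraries, in the units of the rule. The log2 ratio of 70-day Dahongtiancheng to that median ran from -2.23 to 0.16 over the 11, with a median of -0.75, compared with -0.20 over all 14232 such genes. Cs6g01190 and Cs6g01210, on either side of Cs6g01200, had 576 and 1418 fragments in 70-day Dahongtiancheng and 662 and 1735 in 70-day Bingtangcheng. Cs6g10130, 1517 bases from Cs6g10120, had 2569 and 2619 in the same order. Other neighbours were lower in 70-day Dahongtiancheng than in 70-day Bingtangcheng. The flanking gene Cs3g02610, beside Cs3g02600, had 149 and 521 fragments in that order, and a log2 ratio of -1.52. Cs9g06090, Cs9g06100 and Cs9g06110, listed close after Cs9g06070, had 24, 546 and 3520 in 70-day Dahongtiancheng. In 70-day Bingtangcheng they had 59, 1023 and 6965. The lowest flanking gene was Cs4g19570, beside Cs4g19560, with 44 and 3 fragments in Dahongtiancheng and 67 and 0 in Bingtangcheng at the earlier and later stage, thus low in both cultivars at 70 days. Within 5 genes on each side, 17 of the 57 neighbours over the floor were at least 2-fold below the median of the other 3 libraries. Among all 14232 genes, 1925 were. At or below -2 were 4 of the 57, that is 7.02%, against 4.82% of all 14232 genes. All 4 were also lower at 70 than at 50 days in Bingtangcheng, so both percentages can include genes that fell in both cultivars. Besides Cs4g19570 they were Cs3g15740, Cs6g10150 and Cs7g10560. Cs6g10150, for example, had 227 and 11 fragments in Dahongtiancheng and 179 and 10 in Bingtangcheng. On unplaced sequence the listed neighbours of orange1.1t02784 may not be its neighbours in the genome.

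**Figure D5:**
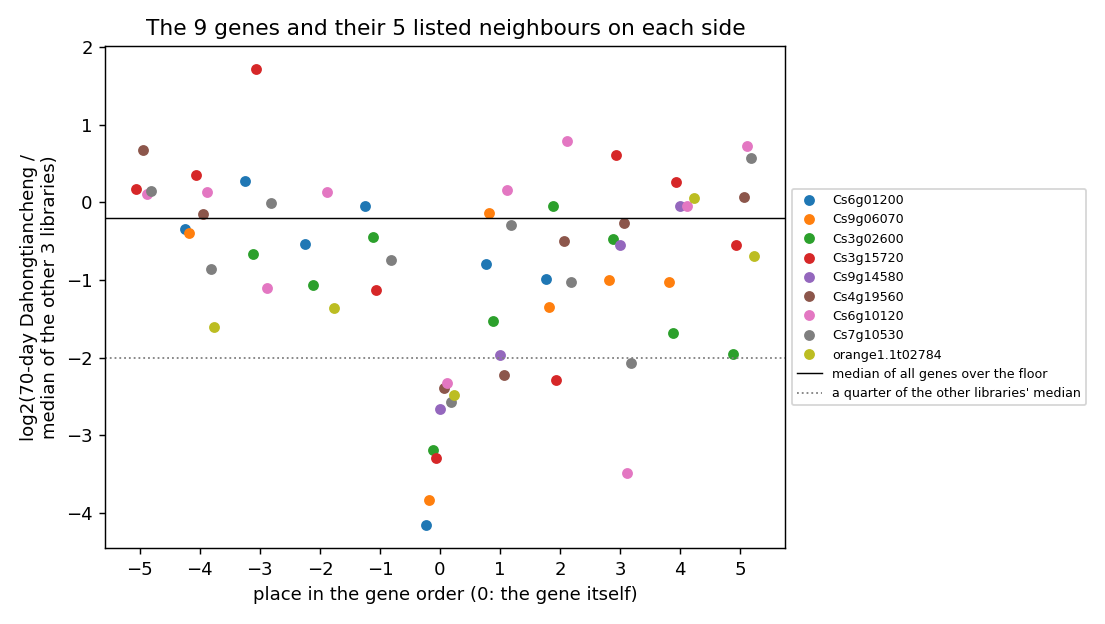
Log2 ratio of the 70-day Dahongtiancheng level to the median of the other 3 libraries, for the 9 genes (place 0) and the genes listed up to 5 places before and after them, where that median was at least 3; the solid line is the median of all such genes (-0.20) and the dotted line is at -2. The 9 genes lie between -4.16 and -2.33, and 4 of 57 neighbours lie at or below the dotted line. Those 4 were also lower at 70 than at 50 days in Bingtangcheng.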

How the data were processed

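Per the labels, endocarp RNA was extracted with Trizol, enriched for poly(A) mRNA and made into Illumina libraries. No source used here names the aligner, the counter, the strandedness, the build or the annotation. For each gene the deposited files list a raw count of fragments, a scaled count (a normalized signal, in most genes a multiple of the raw count that is fixed within a library) and FPKM, per the file headers. The FPKM formula is not stated. A header line recurring 1 time in each file was dropped.

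Counts were divided by the library sum. TMM factors (edgeR 4.0.16) and median-of-ratios factors (DESeq2 1.42.0) were alternatives, and TMM scaled the pairwise size rule. Ratios carry exact conditional (Clopper-Pearson) intervals. With 1 library per group no test was run. The scripts were tested on simulated data. The 9 genes, the rule and the questions asked were chosen with earlier results of these data known. All 9 genes were named, with the 2 on each side of the threshold. Neighbours and genes taken by other settings were named after their values were seen. Gene lists defined on descriptions could not be filled. No sequence is printed, because no genome of the files' build was used here.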

Additional observations from a re-analysis of the deposited data

Results flagged for a closer look

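Cs3g15720 was higher in Dahongtiancheng than in Bingtangcheng at 50 days, by 0.30 on the log2 scale with 0.5 added to each level, and lower at 70 days, at -2.70. It was picked out because the cultivars differed in opposite directions at the 2 stages. The difference was not tested, each side of it is 1 library, and the 95% counting interval of the 50-day ratio, 0.920 to 1.73, includes 1. In the other 8 genes Dahongtiancheng was lower at both stages with library sums.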

How the results depend on the processing

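No paired analysis was possible because each combination of cultivar and stage has 1 library, so that the groups share 1 replicate number. An additive fit of cultivar and stage was not run, since in it a level low in a single library counts as residual. The 9 genes became 14 with TMM factors, median-of-ratios factors, the deposited scaled counts, an offset of 0.1 or a limit of 2 on the second highest level. They became 5 with an offset of 1, 30 with a fold of 3, 3 with a fold of 8 and 1 with a floor of 10. Of the 9, 4 were kept with the offset of 1. The deposited FPKM, rescaled to a common library sum, took 10 genes and kept 0 of the 9. In the FPKM as deposited, without rescaling or an offset, the lowest other library was between 4.65 and 2780 times 70-day Dahongtiancheng. Rescaling lowered 50-day Bingtangcheng most, as its FPKM summed to 4.13e+06, against 2.04e+06 to 2.42e+06 in the other libraries. With the rescaling and the offset of 0.5, the ratio used by the rule ran from 1.74 in Cs3g02600 to 3.89 in Cs9g06070. All 9 genes thus failed the 4-fold condition there. The offset and the floor, set for CPM, were applied to these FPKM levels unchanged. The loss of the 9 genes therefore does not show that the gap was absent in the FPKM. How much of the loss came from the rescaling and how much from the offset was not tested. The median log2 ratio of the third highest library to 70-day Dahongtiancheng, 2.54, was 2.37 with median-of-ratios factors and with the deposited scaled counts, 2.24 with an offset of 1, 1.80 with a fold of 3, 2.32 with no floor and 2.08 with a floor of 10, but 3.33 with FPKM (over 10 other genes) and 3.67 with a fold of 8. Over 36 values of the 9 genes' own ratios under 4 alternatives, 36 stayed above 1 but 22 reached 4. All 9 genes reached it with TMM and with median-of-ratios factors, 4 with an offset of 1 and 0 with FPKM, where the ratio of Cs6g01200 went from 14.0 to 7.87 and 2.25.

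With 70-day Bingtangcheng as the low library, 37 genes became 18 with FPKM, 20 with a fold of 8 and 19 with a floor of 10. With 50-day Bingtangcheng, 13 became 32, 5 and 5 in that order. With 50-day Dahongtiancheng, 1 became 4 with FPKM or a fold of 3, 2 with no floor or a limit of 2 on the second highest level, and 0 with either other offset, a fold of 8 or a floor of 5 or 10. Without orange1.1t02784 the share of fragments was 0.00505% and 0.00766% in 50-day Dahongtiancheng and Bingtangcheng, and 0.000290% and 0.00435% at 70 days. A size rule of 4-fold called 5.99%, 1.54% and 7.48% of genes lower in 70-day Dahongtiancheng than in 50-day Dahongtiancheng, 70-day Bingtangcheng and 50-day Bingtangcheng. It called 6.94% lower in 70-day than in 50-day Bingtangcheng, 1.16% lower in 50-day Bingtangcheng than in 50-day Dahongtiancheng, and 5.87% lower in 70-day Bingtangcheng than in 50-day Dahongtiancheng. Where a cause is not named, it was not tested. The ratios of the 4 genes with 1 fragment in 70-day Dahongtiancheng have no useful upper bound. That fragment stood for a part of a fragment in the authors' scaled values.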
